A study of Homo sapiens with 8 samples.

Results

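The genes described here encode the lysosome and its proton pump. They are 41 genes chosen by symbol, among 27936 genes with an identifier in the count tables. No threshold on expression was used to choose them, but earlier results of these data were known at the time. The 41 comprise 20 lumenal hydrolases, 2 lumenal accessory proteins (PSAP and GRN), 5 lysosomal membrane proteins, 11 genes of the vacuolar H+-ATPase (V-ATPase) and the 3 transcription factor genes TFEB, TFE3 and MITF. All 41 symbols were matched to an entry by Entrez gene ID. Expression was measured by RNA-seq in 8 libraries of the kidney-derived human line HEK293, 4 from TIP60 knock-out (KO) cells and 4 from control cells. TIP60 is the product of KAT5, a lysine acetyltransferase of chromatin. The labels sgRNA1 and sgRNA2, here guide 1 and guide 2, each cover 2 replicate libraries of either arm. The genotype label was HEKg1/C9 for all KO libraries and HEKg1 for all controls. The labels explain neither component, so an effect of the component C9 and an effect of the guides cannot be told apart. Guide expression had been switched on in controls as well as KO cells with doxycycline (1 µg/ml, 3 days), and the sources used here do not give the targets of the control guides. The labels do not say whether replicates came from separate cultures, so p-values measure the spread between these libraries, which may be technical.

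The libraries held 3723992 to 18841774 counts in genes. The shallowest, control sgRNA1 replicate 2, was well below the next control library with 12478705. Levels are given as CPM, counts scaled by library size with TMM factors, and changes as log2 fold changes of KO over control ± SE from edgeR's quasi-likelihood fit of all 14455 genes that passed the filter on low counts. A gene was called higher or lower at a Benjamini-Hochberg adjusted p under 0.05. KAT5 stood at 18.6 and 18.3 CPM in the KO sgRNA1 libraries and at 20.2 and 18 CPM in KO sgRNA2, against 48.2 and 45.5 CPM in control sgRNA1 and 44.5 and 49 CPM in control sgRNA2. Every KO library was below every control library, so the targeted transcript was reduced but not absent (log2 fold change -1.32 ± 0.064, adjusted p = 6.71e-13). Of 8 genes commonly detected in HEK293 and fixed as markers of the line, all passed the filter, and their summed level was 14300 to 15500 CPM in KO and 9330 to 11100 CPM in control libraries, most of it the neurofilament gene NEFM, while PAX2 had 0.323 to 1.31 CPM.

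Lysosomes are acidic organelles in which proteins, glycans and lipids are broken down by hydrolases that work at low pH. The acid is supplied by the V-ATPase, whose cytosolic V1 sector hydrolyses ATP and whose membrane-embedded V0 sector carries protons into the lumen. Many lysosomal genes carry CLEAR elements near their start, E-box sequences bound by TFEB, TFE3 and MITF, which are held in the cytoplasm when nutrients are plentiful and enter the nucleus when mTORC1 is inactive or lysosomes are stressed. These factors are regulated largely through their location in the cell, which mRNA counts do not record.

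Promoter sequences were taken from RefSeq (GRCh38.p14), from 250 bases before to 50 bases after an annotated start. They were found for 29 of the 41 genes. The E-box CACGTG was in the promoters of 8 of these 29 genes, namely LAMP1, ATP6V0D1, GAA, MCOLN1, CTSA, CTSD, CD63 and NEU1. The longer CLEAR core TCACGTGA, which contains the E-box, was in 5 of the 29. Both motifs read the same on either strand. Counted over promoters, the E-box was in 18.2% of the promoters of these genes and in 7.26% of all promoters of that length, and the CLEAR core in 11.4% and 0.98%. The 250 bases before the start are given for the 5 genes with a CLEAR core, because they span the membrane, pump and hydrolase classes whose expression is described next. Each sequence is read 5′ to 3′ on the gene's strand, with CLEAR cores and single E-boxes in capitals.
LAMP1 (chr13:113296989-113297238, plus strand): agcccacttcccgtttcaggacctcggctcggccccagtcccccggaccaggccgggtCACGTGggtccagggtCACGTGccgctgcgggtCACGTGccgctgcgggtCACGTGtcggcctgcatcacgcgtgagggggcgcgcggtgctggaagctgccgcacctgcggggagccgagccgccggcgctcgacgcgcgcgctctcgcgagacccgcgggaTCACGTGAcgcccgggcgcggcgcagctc
ATP6V0D1 (chr16:67481158-67481407, minus strand): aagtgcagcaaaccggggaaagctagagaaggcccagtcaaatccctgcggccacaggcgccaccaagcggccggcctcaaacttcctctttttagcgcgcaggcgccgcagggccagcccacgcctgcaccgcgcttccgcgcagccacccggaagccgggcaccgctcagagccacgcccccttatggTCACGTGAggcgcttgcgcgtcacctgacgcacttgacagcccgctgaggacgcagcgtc
GAA (chr17:80101331-80101580, plus strand): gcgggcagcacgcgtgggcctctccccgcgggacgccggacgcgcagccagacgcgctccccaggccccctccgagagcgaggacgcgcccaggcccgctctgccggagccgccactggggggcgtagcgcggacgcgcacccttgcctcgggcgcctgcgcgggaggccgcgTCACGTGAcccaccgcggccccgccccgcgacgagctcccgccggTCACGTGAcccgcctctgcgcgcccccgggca
MCOLN1 (chr19:7522374-7522623, plus strand): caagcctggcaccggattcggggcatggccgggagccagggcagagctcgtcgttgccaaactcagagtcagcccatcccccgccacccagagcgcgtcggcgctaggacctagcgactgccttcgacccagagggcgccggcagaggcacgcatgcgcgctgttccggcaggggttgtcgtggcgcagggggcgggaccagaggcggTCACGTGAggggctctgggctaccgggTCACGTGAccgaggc
CTSA (chr20:45891085-45891334, plus strand): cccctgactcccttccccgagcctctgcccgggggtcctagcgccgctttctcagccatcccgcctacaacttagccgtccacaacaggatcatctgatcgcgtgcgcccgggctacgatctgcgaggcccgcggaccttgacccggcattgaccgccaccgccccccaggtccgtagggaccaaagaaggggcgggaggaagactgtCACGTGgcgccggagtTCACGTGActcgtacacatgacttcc
LAMP1 had 6 E-boxes in the window, of which 2 lay in CLEAR cores, and the second core crosses the start and is therefore not seen in the bases shown. The starts used for LAMP1 and MCOLN1, and that of CD63 with its E-box, did not coincide with a transcript start in GENCODE v29. GAA and MCOLN1 carried 2 CLEAR cores, whereas ATP6V0D1 and CTSA carried 1. A motif match describes the letters of the window and says nothing about binding in these cells.

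Among the lysosomal genes chosen here, more were called higher than lower in KO cells, and most changes were modest. Of the 41 genes, 40 passed the filter and were tested, and NEU1 was not. Among the 40, 22 were higher in KO (55%), 7 were lower (17.5%) and 11 were not called. Over all tested genes 31.8% were called higher and 31.2% lower. The fit thus called 63% of the genes it measured, and the lysosomal genes had a larger share of higher calls and a smaller share of lower calls than this background. These shares describe genes chosen with earlier results of these data known, and no test of the set was made. Because many of them are abundant, the shares among the 9952 genes with a mean of at least 10 CPM, 29.3% higher and 39.2% lower, serve as a second reference. The median log2 fold change was 0.17 over the 40 genes and 0.01 over all tested genes.

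Few of the 40 genes changed by at least 1.5-fold. Such a change together with the call was reached upward by 3 genes (SMPD1, GLA and CTSB, 7.5% of the 40) and downward by CD63 alone (2.5%). Of all tested genes, 14.3% reached it upward and 6.97% downward. These include genes of low level, and the shares among genes with a mean of at least 10 CPM were not taken. All 4 KO libraries lay above all 4 control libraries for 21 of the 40 genes and below them for 6, where the background was 27.3% above and 25.6% below. Summed over the 41 genes, the level was 4350 to 4420 CPM in KO and 3700 to 3970 CPM in control libraries, ranges that do not overlap. Fewer cells of a kind and less RNA per cell cannot be told apart in such bulk libraries.

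**Figure D1:**
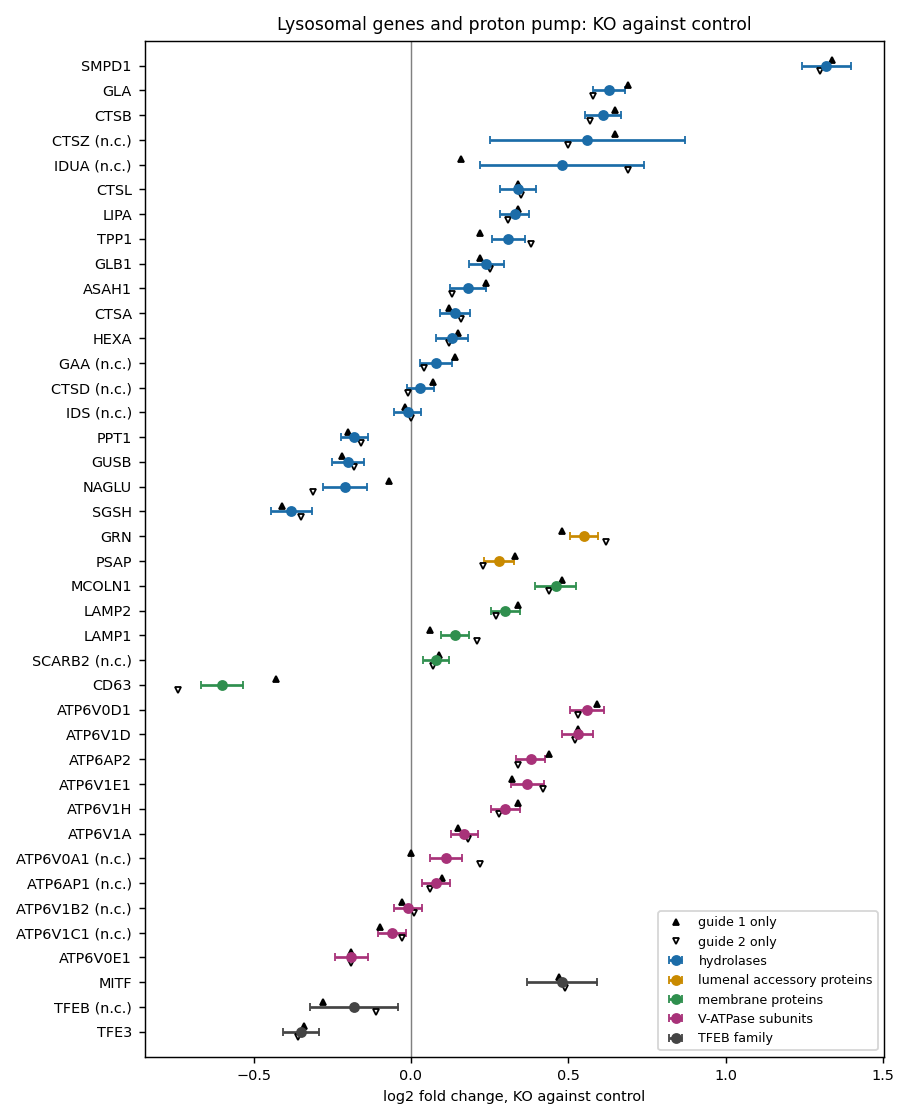
Log2 fold change of KO over control (x axis) for the 40 tested lysosomal and proton pump genes (y axis), ordered within class. Circles with bars give the fit of all 8 libraries ± SE, filled upward triangles guide 1 and open downward triangles guide 2, and n.c. marks genes not called. SMPD1 stands apart at 1.32 and CD63 is lowest at -0.60.

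**Figure D2:**
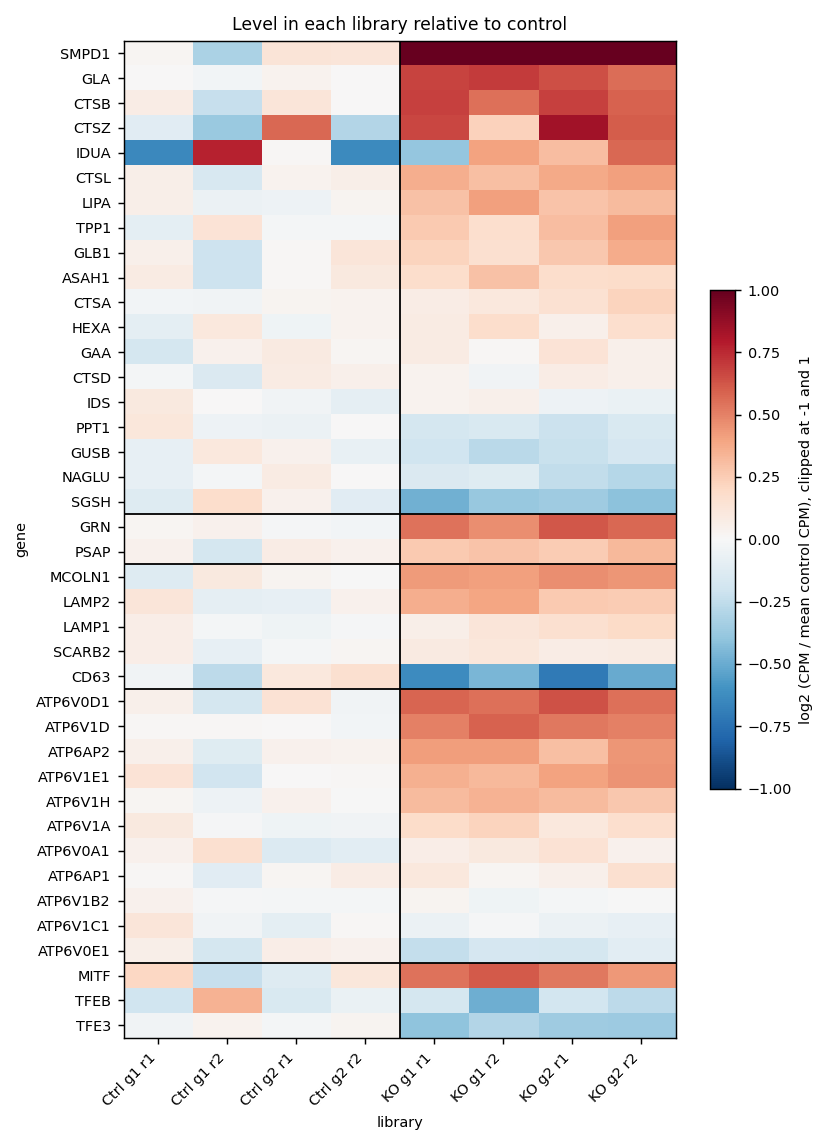
Level of the 40 tested genes in each library as log2 of CPM over the mean control CPM, clipped at -1 and 1 (SMPD1 in KO exceeds 1). Columns are the 4 control and 4 KO libraries by guide and replicate (g1 and g2, r1 and r2), and horizontal lines part the classes. The KO columns are redder than the control columns for most genes, and SGSH, CD63 and TFE3 are bluer.

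The transcription factor genes of the TFEB family moved in different directions. Of the 3, MITF was higher, TFE3 was lower and TFEB was not called. These shares, 33.3% each way, are near those over all tested genes (31.8% higher and 31.2% lower), so the count is no result about the family. TFE3 (gene ID 7030, chromosome X, 49028726 to 49043357, GRCh38.p14) stood at 30.7 and 33.2 CPM in KO sgRNA1 and 31.8 and 31.5 CPM in KO sgRNA2, against 39.6 and 41.5 CPM in control sgRNA1 and 40 and 41.4 CPM in control sgRNA2. The arms do not overlap and the guides gave like levels (log2 fold change -0.35 ± 0.057, adjusted p = 1.80e-05). MITF, the family member named for its part in pigment cells (gene ID 4286, chromosome 3), was at 11.5 and 12.1 CPM in KO sgRNA1 and 11.4 and 10.7 CPM in KO sgRNA2, with 9.13 and 6.74 CPM in control sgRNA1 and 7.25 and 8.55 CPM in control sgRNA2. Again every KO library was above every control library, with a wider spread among the controls (0.48 ± 0.11, adjusted p = 5.13e-04). With all libraries thinned to the depth of the shallowest, MITF was at 0.65 and lost the call (adjusted p = 0.0836).

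TFEB, whose product is the best studied activator of lysosomal genes, had 5.43 and 4.38 CPM in KO sgRNA1 and 5.39 and 5.1 CPM in KO sgRNA2, against 5.33 and 7.81 CPM in control sgRNA1 and 5.52 and 5.86 CPM in control sgRNA2. The arms overlap, and the highest value is that of the shallowest library (-0.18 ± 0.14, adjusted p = 0.266). Per kilobase of gene length, TFE3 was the most abundant of the 3 in either arm (11.6 CPM per kilobase in control and 9.09 in KO), followed in control by TFEB (1.72) and MITF (1.29) and in KO by MITF (1.86) and TFEB (1.42), with no overlap between neighbours over the 4 libraries of an arm. TFE3 thus made up 78.3 to 80.7% of the family's length-scaled level in control and 72.1 to 74.8% in KO libraries, and MITF 7.25 to 10.4% and 14.3 to 15.5%. The share of TFEB overlapped between the arms (10.5 to 14.5% and 9.68 to 12.5%). Melanocyte markers, which could accompany MITF, summed to 4.04 to 5.02 CPM in KO and 1.47 to 2.99 CPM in control. PMEL, which is 1 of 5 such markers and 1 of 2 tested, was higher, and the other tested one was not called. With guide 1 alone neither was called. TYR and MLANA had no count in any library. More genes of any kind had a count in KO (18513 to 19037) than in control libraries (15581 to 17413). The part of the melanocyte markers in the MITF result was not tested.

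Among the hydrolases, 10 of 19 tested genes were higher (52.6%), 4 were lower (21.1%) and 5 were not called, with a median log2 fold change of 0.18. Over all tested genes the shares were 31.8% and 31.2%. The largest change of the whole set was in SMPD1, which encodes acid sphingomyelinase, the enzyme that splits sphingomyelin into ceramide and phosphocholine (gene ID 6609, chromosome 11, 6390474 to 6394996). It stood at 32.4 and 29.1 CPM in KO sgRNA1 and 32.7 and 36 CPM in KO sgRNA2, against 12.9 and 10.2 CPM in control sgRNA1 and 13.9 and 13.8 CPM in control sgRNA2. Every KO library had more than double the level of every control library. The mean was 32.5 ± 2.79 CPM (SD, n = 4) in KO and 12.7 ± 1.73 CPM in control, a ratio of 2.56 (log2 fold change 1.32 ± 0.078, adjusted p = 1.23e-11), and the guides gave 1.34 ± 0.12 and 1.30 ± 0.10.

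GLA and CTSB were the other hydrolases to pass 1.5-fold. GLA encodes alpha-galactosidase A, the glycolipid-degrading enzyme deficient in Fabry disease (gene ID 2717, chromosome X, 101397803 to 101407925). Its levels were 61.9 and 62.9 CPM in KO sgRNA1 and 60.5 and 57 CPM in KO sgRNA2, against 38.8 and 38 CPM in control sgRNA1 and 39.7 and 38.9 CPM in control sgRNA2. The controls lay within a narrow band far below the KO libraries (0.63 ± 0.052, adjusted p = 1.83e-09). CTSB, the cysteine protease cathepsin B, had 123 and 112 CPM in KO sgRNA1 and 123 and 115 CPM in KO sgRNA2, with 80.6 and 65.2 CPM in control sgRNA1 and 83.3 and 76.4 CPM in control sgRNA2. The arms were again separate, with the lowest value in the shallowest library (0.61 ± 0.057, adjusted p = 1.14e-08).

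**Figure D3:**
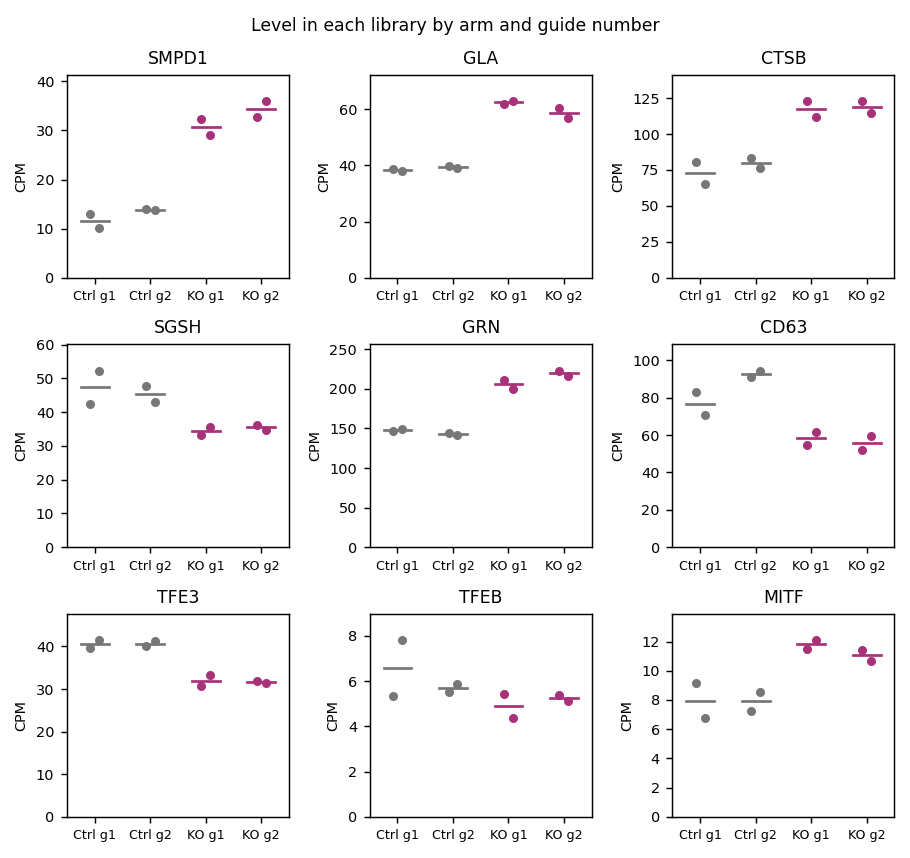
Level in CPM (y axis, from 0) in each library for 9 genes, by arm and guide number (x axis, Ctrl g1 to KO g2, 2 libraries each). Points are libraries and bars are the mean of 2 libraries. SMPD1, GLA, CTSB, GRN and MITF are higher in all KO libraries, SGSH, CD63 and TFE3 are lower in all of them, and TFEB overlaps.

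The 4 hydrolases called lower were SGSH, NAGLU, GUSB and PPT1. SGSH, the sulfamidase of heparan sulfate breakdown, stood at 33.2 and 35.7 CPM in KO sgRNA1 and 36.1 and 34.8 CPM in KO sgRNA2, against 42.4 and 52.3 CPM in control sgRNA1 and 47.6 and 42.9 CPM in control sgRNA2. All KO libraries were below all controls (-0.38 ± 0.064, adjusted p = 3.13e-05). NAGLU, another enzyme of heparan sulfate breakdown, had 22.8 and 23.2 CPM in KO sgRNA1 and 21.2 and 20.7 CPM in KO sgRNA2, with 23.8 and 24.8 CPM in control sgRNA1 and 26.7 and 25.3 CPM in control sgRNA2. The arms do not overlap, but the gap is narrow with guide 1, where the change was not called (-0.07 ± 0.10), and wider with guide 2 (-0.31 ± 0.090), and the difference between the guides was not called. NAGLU over both guides was at -0.21 ± 0.071 (adjusted p = 0.016). Its call was lost without KO sgRNA2 replicate 2 (adjusted p = 0.052), without control sgRNA2 replicate 1 (-0.16, adjusted p = 0.0875) and with DESeq2 (adjusted p = 0.0568), and at thinned depth its value was 0.01 (adjusted p = 0.975). GUSB, the beta-glucuronidase, had 58.4 and 55.6 CPM in KO sgRNA1 and 57.5 and 59.6 CPM in KO sgRNA2, against 63.3 and 72.2 CPM in control sgRNA1 and 69 and 63.6 CPM in control sgRNA2. It too was lower in every KO library (-0.20 ± 0.052, adjusted p = 0.0025).

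Of 6 tested peptidases, 4 were higher (66.7%) and 2 were not called, with a median of 0.33. Beside CTSB, the cysteine protease CTSL (0.34 ± 0.056), the tripeptidyl peptidase TPP1 (0.31 ± 0.053) and cathepsin A, CTSA (0.14 ± 0.048), were higher, while the aspartic protease CTSD (0.03 ± 0.043) and CTSZ (0.56 ± 0.31) were not called. CTSZ had only 0.539 to 1.25 CPM over the 8 libraries. Among 9 tested enzymes of glycan breakdown, 3 were higher and 3 lower (33.3% each, median 0.08), close to the shares over all tested genes (31.8% and 31.2%). Differences between substrate groups were not tested. The higher ones were GLA, the beta-galactosidase GLB1 (0.24 ± 0.055) and the hexosaminidase alpha chain HEXA (0.13 ± 0.052). Those not called were the glucosidase GAA (0.08 ± 0.051), the iduronate sulfatase IDS (-0.01 ± 0.043) and the iduronidase IDUA (0.48 ± 0.26), whose controls spread from 1.62 to 4.31 CPM. The lipid-directed enzymes, 4 in number, held SMPD1, the acid lipase LIPA (0.33 ± 0.046) and the ceramidase ASAH1 (0.18 ± 0.057) as higher genes and the palmitoyl thioesterase PPT1 (-0.18 ± 0.044) as a lower one.

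Several of these smaller calls depend on single libraries or were lost on thinning to lower depth. Thinning was a single random draw, so its values also carry the noise of that draw. Without one of the libraries KO sgRNA1 replicate 2, KO sgRNA2 replicate 2, control sgRNA2 replicate 1 or control sgRNA2 replicate 2, the adjusted p of CTSA was 0.0524, 0.0611, 0.0594 and 0.0667, and that of HEXA 0.135, 0.0999, 0.0988 and 0.0514. Neither was called without the filter on low counts (adjusted p = 0.0852 and 0.073), nor HEXA with DESeq2 (adjusted p = 0.051). At thinned depth CTSA was called with a larger value (0.34, adjusted p = 0.0224). HEXA also lost its call without control sgRNA1 replicate 1 (0.09, adjusted p = 0.179), and ASAH1 lost its call without KO sgRNA1 replicate 2 (0.14, adjusted p = 0.0651). In the other direction, IDUA was called higher without KO sgRNA1 replicate 1 (0.63, adjusted p = 0.0385) or control sgRNA1 replicate 2 (0.67, adjusted p = 0.0193), and without the filter (adjusted p = 0.0455). When all libraries were thinned to the shallowest, CTSL (0.24), GLB1 (0.18), HEXA (0.08), ASAH1, GUSB (-0.23), SGSH (-0.29) and PPT1 (-0.09) were not called, whereas SMPD1, GLA and CTSB were.

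Annotated exons of some hydrolase genes overlap other genes, and no source used here gives the strand setting of the counting. In GENCODE v29, CTSA shares 28.5% of its exonic bases with genes on the other strand, PPT1 23.4% (CAP1), IDUA 13.3% (SLC26A1) and HEXA 13%. CTSD shares 41.7% with a gene on its own strand and 15.8% with one on the other, and IDS shares 17.4%, NAGLU 12.6% and TPP1 11.6% with genes on their own strand. SMPD1, GLA and CTSB share none. The part of these overlaps in the values was not tested.

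NEU1, the lysosomal sialidase, had hardly any counts in all libraries. It had 0, 1, 4 and 3 counts in the KO libraries and 2, 0, 0 and 0 in the control libraries, in the order of guide and replicate. These counts do not allow a comparison. Low counts were common in the region. Of the protein-coding genes within 1 Mb of NEU1 on chromosome 6, 14 of 90 (15.6%) had a mean of at least 1 CPM, against 571 of 904 (63.2%) on the rest of the chromosome, and the part of the region in the NEU1 counts was not tested. How reads that align to several places were handled is not known, so the counts of NEU1 cannot be read as a lack of expression.

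Both lumenal accessory proteins were higher in KO, as were 31.8% of all tested genes. GRN encodes progranulin, a glycoprotein that is cut into granulins in the lysosome (gene ID 2896, chromosome 17, 44345302 to 44353106). Its levels were 211 and 200 CPM in KO sgRNA1 and 223 and 216 CPM in KO sgRNA2, against 147 and 149 CPM in control sgRNA1 and 144 and 142 CPM in control sgRNA2. The controls of both guides agree closely and lie well below every KO library (0.55 ± 0.044, adjusted p = 9.12e-10). PSAP encodes prosaposin, the precursor of the saposins that present sphingolipids to their hydrolases. It stood at 521 and 530 CPM in KO sgRNA1 and 517 and 542 CPM in KO sgRNA2, with 447 and 385 CPM in control sgRNA1 and 458 and 446 CPM in control sgRNA2. All KO libraries were higher, and the shallowest control library was the lowest (0.28 ± 0.049, adjusted p = 4.91e-05). Per kilobase, PSAP was the most abundant of the 41 genes in both arms (153 in control and 186 CPM per kilobase in KO).

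In the membrane class, MCOLN1, LAMP2 and LAMP1 were higher (60%), CD63 was lower (20%) and SCARB2 was not called. The shares over all tested genes were 31.8% and 31.2%. MCOLN1 encodes the calcium channel TRPML1 of the lysosomal membrane, and its promoter holds 2 CLEAR cores. It had 31.1 and 30.8 CPM in KO sgRNA1 and 32.1 and 31.5 CPM in KO sgRNA2, against 21.2 and 24.8 CPM in control sgRNA1 and 23.6 and 23.1 CPM in control sgRNA2. The KO libraries were nearly level with each other and all above the controls (0.46 ± 0.065, adjusted p = 3.33e-06). LAMP2, a main glycoprotein of the lysosomal membrane that also serves chaperone-mediated autophagy, had 215 and 219 CPM in KO sgRNA1 and 200 and 199 CPM in KO sgRNA2, with 182 and 157 CPM in control sgRNA1 and 158 and 172 CPM in control sgRNA2. Here too the arms were separate (0.30 ± 0.047, adjusted p = 1.16e-05).

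CD63, a tetraspanin of late endosomes, lysosomes and secreted vesicles, was the most reduced of the 41 genes (gene ID 967, chromosome 12, 55723535 to 55730041). It stood at 54.9 and 61.7 CPM in KO sgRNA1 and 52 and 59.7 CPM in KO sgRNA2, against 82.8 and 70.6 CPM in control sgRNA1 and 91.3 and 94.5 CPM in control sgRNA2. All KO libraries were below all controls, and the KO mean was 67.3% of the control mean (-0.60 ± 0.067, adjusted p = 1.34e-07). The change was -0.43 ± 0.089 with guide 1 and -0.74 ± 0.081 with guide 2, a difference that was not called over all genes. LAMP1, the companion of LAMP2, was at 0.14 ± 0.044 (adjusted p = 0.0105), with 0.06 ± 0.061 for guide 1, not called, and 0.21 ± 0.059 for guide 2. Its call was lost without control sgRNA2 replicate 1 (adjusted p = 0.0703), without control sgRNA2 replicate 2 (adjusted p = 0.0652) and at thinned depth (0.05, adjusted p = 0.68). SCARB2, the receptor that carries glucocerebrosidase to the lysosome, was at 0.08 ± 0.042 (adjusted p = 0.0885) and was called without control sgRNA1 replicate 1 (adjusted p = 0.0363), with a stricter filter (adjusted p = 0.0473) and with library totals in place of TMM (adjusted p = 0.0125).

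Of the 11 proton pump genes, 6 were higher (54.5%), 1 was lower (9.09%) and 4 were not called, with a median of 0.17. Over all tested genes the shares were 31.8% and 31.2%. The largest rise was in ATP6V0D1, the d1 subunit that couples the V0 ring to the central stalk (gene ID 9114, chromosome 16, 67438019 to 67481157). It stood at 76.1 and 74.6 CPM in KO sgRNA1 and 79 and 74.4 CPM in KO sgRNA2, against 52.6 and 45 CPM in control sgRNA1 and 56.2 and 49.7 CPM in control sgRNA2. The arms were far apart (0.56 ± 0.055, adjusted p = 2.26e-08), and its promoter holds 1 CLEAR core. ATP6V1D, the D subunit of the V1 stalk, had 60 and 63.8 CPM in KO sgRNA1 and 60.9 and 59.9 CPM in KO sgRNA2, with 42.7 and 42.6 CPM in control sgRNA1 and 42.5 and 41.5 CPM in control sgRNA2. Libraries of an arm differed little and the arms were separate (0.53 ± 0.050, adjusted p = 1.33e-08). ATP6AP2, the accessory protein also known as the prorenin receptor, had 222 and 222 CPM in KO sgRNA1 and 205 and 225 CPM in KO sgRNA2, against 172 and 153 CPM in control sgRNA1 and 171 and 170 CPM in control sgRNA2. It was higher in every KO library (0.38 ± 0.047, adjusted p = 4.56e-07).

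ATP6V0E1, a small V0 subunit, was the 1 pump gene called lower. Its levels were 51.6 and 54 CPM in KO sgRNA1 and 53.9 and 56.5 CPM in KO sgRNA2, against 63.3 and 53.9 CPM in control sgRNA1 and 63.6 and 62.6 CPM in control sgRNA2. The arms overlap through the shallowest control library alone, which lies within the KO range (-0.19 ± 0.052, adjusted p = 0.00309). At thinned depth the value was -0.35 (adjusted p = 0.0248). By sector, 4 of 6 V1 genes were higher and none lower (median 0.24), 1 of 3 V0 genes was higher and 1 lower (median 0.11), and 1 of 2 accessory genes was higher. Over all tested genes 31.8% were higher and 31.2% lower, near the V0 shares of 33.3% each, and differences between sectors were not tested. Beside ATP6V1D, the higher V1 genes were the stator subunit ATP6V1E1 (0.37 ± 0.053), the regulatory subunit ATP6V1H (0.30 ± 0.046) and the catalytic subunit ATP6V1A (0.17 ± 0.043). Its partner in the catalytic ring, ATP6V1B2, was not called (-0.01 ± 0.045), nor was ATP6V1C1 (-0.06 ± 0.045). At thinned depth ATP6V1A was at 0.02 and not called (adjusted p = 0.882), and ATP6V1H was at 0.55 (adjusted p = 1.76e-04). ATP6V0A1, an isoform of the proton-translocating a subunit (0.11 ± 0.051, adjusted p = 0.0566), and ATP6AP1, an accessory protein (0.08 ± 0.045, adjusted p = 0.147), were not called. ATP6V0A1 was called without control sgRNA1 replicate 2 (0.14, adjusted p = 0.0165) and with a stricter filter (adjusted p = 0.037), and library totals in place of TMM called both (adjusted p = 0.0154 and 0.0292).

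Per kilobase of length, the pump genes fell into a higher and a lower tier. In control libraries ATP6AP2 (81.6 ± 4.35 CPM per kilobase, SD, n = 4), ATP6V1E1 (78 ± 7.31), ATP6V0E1 (69 ± 5.28) and ATP6AP1 (53.2 ± 2.91) led, where ATP6V1E1 overlapped both ATP6AP2 and ATP6V0E1. The other 7 lay between 29.8 for ATP6V1C1 and 23.4 for ATP6V1D. Each of the 7 overlapped its neighbour in the order, so that order is not resolved. KO libraries had ATP6AP2 (107 ± 4.43) and ATP6V1E1 (102 ± 3.76) in front and overlapping, then ATP6V0E1 (61.2 ± 2.24) and ATP6AP1 (56.4 ± 2.24), also overlapping. ATP6V0D1 ranked 9 of 11 in control (25.2) and 5 of 11 in KO (37.6), where it no longer overlapped its lower neighbour ATP6V1H (34.1). ATP6V1D, lowest in control, overlapped ATP6V1H in KO (33.9), and ATP6V0A1 and ATP6V1B2 were lowest there at 26.1 each.

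**Figure D4:**
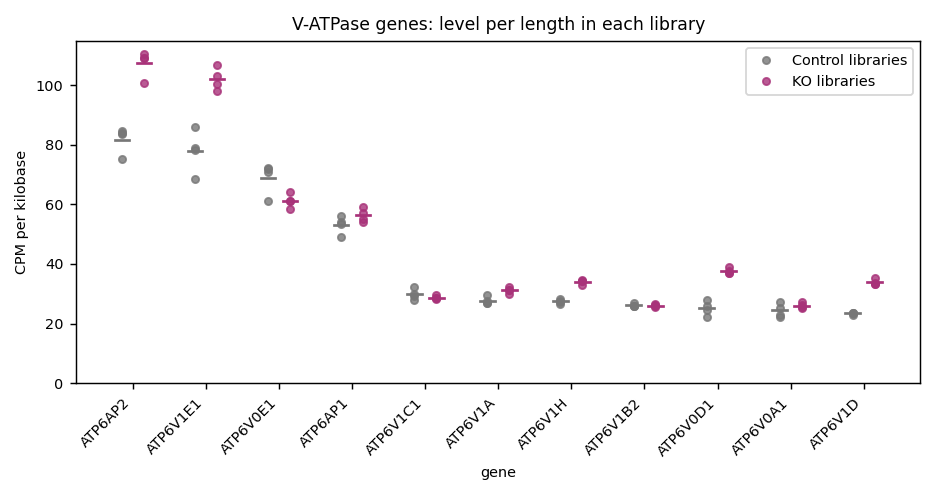
Level per kilobase of gene length (y axis, CPM per kilobase, from 0) of the 11 V-ATPase genes (x axis, ordered by control mean). Points are the 4 control and 4 KO libraries and short bars their means. ATP6AP2 and ATP6V1E1 have the highest means in both arms, and all 7 genes of the lower tier in control stay below the other 4 in KO.

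Calls in both directions were found among genes with and without an E-box in the promoter window. Of the 7 tested genes with an E-box, 4 were higher (57.1%), 1 was lower (CD63, 14.3%) and 2 were not called (median 0.14). Of the 21 with a promoter sequence and no E-box, 11 were higher (52.4%), 3 lower (14.3%) and 7 not called (median 0.33). Over all tested genes 31.8% were higher and 31.2% lower, and the groups were not tested against each other. Among the 5 with the CLEAR core, ATP6V0D1 and MCOLN1 rose by 0.56 and 0.46, CTSA and LAMP1 were both at 0.14, and GAA, with 2 cores, was not called. Across the 40 genes the log2 fold change had a Spearman rho of -0.06 with level per kilobase and of -0.16 with gene length. These correlations run over genes measured in the same libraries and describe this set only.

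Each guide taken alone gave more higher than lower calls among the lysosomal genes. With guide 1, 18 of the 40 genes were higher and 5 lower (24.3% and 23.3% of all tested genes), and with guide 2, 20 were higher and 7 lower (25.7% and 25.4%). The same genes were called with both guides in 17 cases upward and 5 downward, where the background was 20.3% and 20%. The sign was the same for 36 of the 40 (87% of all tested genes), and the 4 exceptions, CTSD, IDS, ATP6V0A1 and ATP6V1B2, were not called over both guides together. Log2 fold changes of the guides, which share no library, had a Pearson r of 0.93 over the 40 genes (Spearman rho 0.92) and of 0.87 over all genes. In the test of the difference between guides, edgeR called 0 genes, with 638 (4.41%) at an unadjusted p under 0.05, and DESeq2 called 0, with 192 at an unadjusted p under 0.05. CD63 was among these by both tools and ATP6V0A1 by edgeR alone. Control sgRNA1 and control sgRNA2 differed in 4 genes (0.0277%), none of them lysosomal members.

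**Figure D5:**
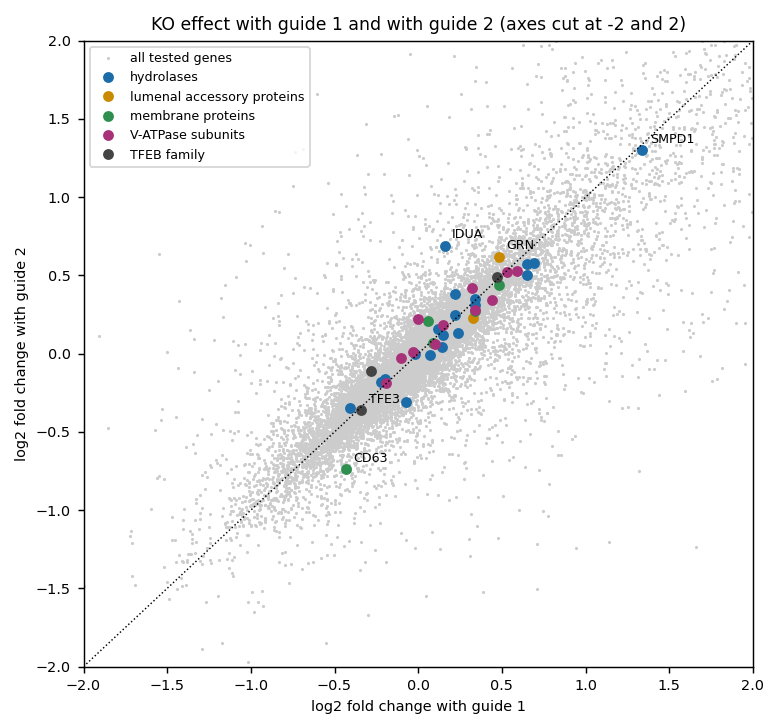
Log2 fold change of KO over control with guide 1 (x axis) against guide 2 (y axis). Small grey points are all tested genes within -2 to 2, large points the 40 lysosomal and pump genes coloured by class, and the dotted line marks equal values. The large points follow the line, with SMPD1 at the upper end, and CD63 and IDUA lie off it.

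Other genes of the lysosome are given by function. Of 33 further hydrolases and activators, 29 were tested, and 15 were higher (51.7%) and 1 lower (3.45%, median 0.19). Over all tested genes the shares were 31.8% and 31.2%. The protease CTSV (0.96 ± 0.093) and the cholesterol-binding protein NPC2 (0.73 ± 0.072) rose, and the dipeptidyl peptidase CTSC fell (-0.40 ± 0.053). Of 26 further membrane proteins and transporters, 25 were tested, with 10 higher (40%) and 5 lower (20%, median 0.10). They included NPC1 (1.03 ± 0.051), the partner of NPC2 in cholesterol export, and the ion channel TMEM175 (0.73 ± 0.075) as higher genes, and the channel TPCN2 (-0.70 ± 0.095) and the sialic acid transporter SLC17A5 (-0.50 ± 0.056) as lower ones.

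Of 15 pump subunit genes outside the 11 described above, 11 were tested, and 4 were higher (36.4%) and 3 lower (27.3%), near the shares over all tested genes (31.8% and 31.2%), with a median of 0.02. ATP6V1B1 rose from a very low level (1.91 ± 0.36, with 26 counts over the control libraries and 150 over the KO libraries), and the a2 isoform ATP6V0A2 rose by 0.19 ± 0.045, whereas the a3 isoform TCIRG1 (-0.61 ± 0.15) and ATP6V1F (-0.21 ± 0.047) fell. All 10 genes of pump assembly and regulation were tested, with 5 higher (50%) and 3 lower (30%, median 0.06), beside the same 31.8% and 31.2%. The assembly factors VMA21 (-0.47 ± 0.045) and CCDC115 (-0.35 ± 0.067) fell, while WDR7 (0.43 ± 0.052) and DMXL2 (0.43 ± 0.053), which act in pump assembly, rose.

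For enzyme delivery, 12 of 13 genes were tested, with 4 higher (33.3%) and 5 lower (41.7%, median -0.05), beside 31.8% and 31.2% of all tested genes. The sulfatase-activating enzyme SUMF1 (0.74 ± 0.074) and the mannose-6-phosphate receptor IGF2R (0.50 ± 0.055) rose, and CLN6 (-0.60 ± 0.045), which acts in export of lysosomal enzymes from the endoplasmic reticulum, and the sorting adaptor GGA2 (-0.36 ± 0.042) fell. In nutrient sensing, 18 of 19 genes were tested, with 4 higher (22.2%) and 5 lower (27.8%, median -0.03). Counts this near the background are no result about either list. RRAGA (0.51 ± 0.050), a GTPase that recruits mTORC1 to the lysosome, and TSC1 (0.31 ± 0.049) rose, while the mTOR subunit MLST8 (-0.49 ± 0.044) and the Ragulator subunit LAMTOR4 (-0.42 ± 0.063) fell.

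Macrophages are rich in lysosomes, and their markers were near the detection limit. Of 8 markers, 2 were tested, CD14 and CSF1R, and both were higher in KO, as were 31.8% of all tested genes. With guide 1 alone neither was called. The summed level was 2.60 to 3.38 CPM in KO and 1.22 to 1.45 CPM in control libraries, and AIF1 had no count in any library. Fibroblast markers overlapped between the arms (19 to 23.8 CPM in KO and 14.7 to 25.1 CPM in control), while those of endothelium (0.668 to 1.81 CPM in KO and 0 to 0.326 CPM in control) and hepatocytes (0.234 to 0.594 and 0 to 0.069 CPM) did not overlap and were higher in KO. No marker of endothelium or hepatocytes passed the filter. Genes of any kind with at least 1 count were more in KO (18513 to 19037) than in control libraries (15581 to 17413). Control sgRNA2 replicate 1, with 14601552 counts, had 17413 such genes. KO sgRNA1 replicate 2, with 13325415 counts, had 18513. The part of this difference in the marker sums was not tested. The part of the macrophage and other cell type markers in the lysosomal changes was not tested either.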

How the data were processed

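The 8 tables held the raw read count per gene that the authors deposited, without normalisation, and a gene length in bases. According to the submitters' processing notes, featureCounts and the build hg38 were used. The strand setting, like the aligner, annotation and filters, is not given in the sources used here, so reads shared by overlapping genes or paralogs may have been split or dropped. Libraries were stranded TruSeq mRNA libraries, per the labels' protocols. Of 28395 entries, 459 without an identifier were left out (0.0284 to 0.0425% of counts). RefSeq (GRCh38.p14) gave symbols and coordinates for 27744 of 27936 genes.

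Counts were analysed in R 4.3.3 with edgeR 4.0.16 (TMM, filterByExpr on the 4 groups of 2 libraries with a minimum count of 10 and a minimum total of 15, quasi-likelihood F test). KO was compared with control by a model with guide number and arm over all 8 libraries (5 residual degrees of freedom), and within and between guides by contrasts of 4 group means (4 degrees of freedom). Common dispersion gave a coefficient of variation of 0.0473. Benjamini-Hochberg adjustment ran over 14455 genes, with calls at values under 0.05. The SE is the log2 fold change divided by the square root of F. Levels per kilobase used the deposited length. The procedure was tested on simulated data. Replicates differed by more than sampling noise (chi-square per degree of freedom 1.6 to 7.2), so none was counted as a duplicate.

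Members and gene lists were chosen with earlier results of these data known. Genes given in every library are KAT5, the TFEB family and the called members with the largest changes of each class (up to 3 rises and 3 falls in hydrolases and V-ATPase, up to 2 and 2 elsewhere), and other lists name up to 2 rises and 2 falls by the smallest p. Alternatives were DESeq2 1.42.0, its size factors in edgeR, library totals in place of TMM and no filter. Others were a stricter filter (at least 1 CPM in 4 libraries), no guide term, a replicate block and each library left out. Counts were also thinned to 3723992 per library by a single random draw.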

Additional observations from a re-analysis of the deposited data

Results flagged for a closer look

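In each arm of 4 libraries, the gap between the highest or lowest library and its neighbour was divided by the arm's range and set against Dixon's 95% critical value for 4 values. Chance gives about 1 such gap in 20 groups, and 7 of 82 groups passed. The shallowest library, control sgRNA1 replicate 2, was the low one in 4 of them. There PSAP was at 385 CPM against 446 to 458 in the other controls (ratio 0.846), ATP6AP2 at 153 against 170 to 172 (0.908), ATP6V0E1 at 53.9 against 62.6 to 63.6 (0.907) and CTSL at 31.3 against 35.8 to 36.5 (0.884).

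The remaining gaps were in deeper libraries. ATP6V1B2 was at 82.2 CPM in control sgRNA1 replicate 1 against 78.7 to 79.2 in the other controls (0.849). ASAH1 was at 61.6 CPM in KO sgRNA1 replicate 2 against 56.7 to 57 in the other KO libraries (0.928), and ATP6AP2 at 205 CPM in KO sgRNA2 replicate 1 against 222 to 225 (0.846). The part of depth in these gaps was not tested.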

How the results depend on the processing

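Of 639 member values for KO against control under the alternatives, 600 kept their side of the threshold, with the same sign where called. Changes of sign in genes called by neither fit were not counted. Another 28 lost the call (12 genes), 10 gained it (4 genes) and 1 called value changed sign. That was NAGLU at thinned depth (0.01, adjusted p = 0.975). The call of 24 of the 40 genes held under every alternative run, and changes of sign in uncalled values were again not counted. Thinning, which removes most counts, left 1929 higher and 2047 lower calls over all genes, and 15 higher and 3 lower members. Within guide 1 it left 1013 higher and 1077 lower genes, with 9 members higher and 0 lower, and within guide 2 1052 higher and 1121 lower, with 9 members higher and 1 lower. The lower members of guide 2 were 4 with library totals and 3 with DESeq2. Without a filter the difference between guides was called for 11 genes, none of them members, for reasons that were not tested.

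With each library left out in turn, higher members ranged from 19 to 24 and lower members from 6 to 7. Over all tested genes, higher calls ranged from 4209 to 4583 and lower calls from 4178 to 4739. Within a guide, the lowest counts over all tested genes were likewise below those of the full fit. Lower members of guide 1 ranged from 2 (without KO sgRNA1 replicate 1) to 6, higher members of guide 2 from 13 (without control sgRNA2 replicate 1) to 22, and lower members of guide 2 from 2 (without the same library) to 7. The difference between guides was called for 0 to 25 genes, with 25 without control sgRNA1 replicate 1 and 23 without control sgRNA1 replicate 2. Where an arm of a guide kept 1 library, that library was assumed to vary like the other groups. The median of the members ranged from 0.10 (thinned) to 0.21 (library totals). That of the TFEB family was -0.18 in the main fit and 0.08 at thinned depth.

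Deviations of same-numbered libraries had correlations of 0.0151 (guide 1) and 0.0276 (guide 2), so no strong shared effect of replicate number was seen. These values do not settle whether same-numbered libraries were handled together. With the replicate block, 4527 genes were higher and 4453 lower, and 22 members higher and 7 lower. Low counts limit the precision for CTSZ.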
